A study of Mus musculus with 8 samples.

Results

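The oligodendrocyte lineage was examined through 34 genes that mark its stages, of which Olig1 and Olig2 lie in the triplicated segment of Ts1Cje mice and the other 32 keep 2 copies. Members were the non-control probes whose RefSeq accession belongs to a listed gene, and all 34 genes were found, on 44 of the 55681 probes. Hippocampal total RNA was read on 8 arrays, 4 of Ts1Cje and 4 of wild-type animals, described as littermate pairs, 3 months old and labelled C57BL6/J. Ts1Cje mice serve as a model of Down syndrome, in which a translocation adds a copy of distal chromosome 16, from Sod1 on; the Sod1 gene of that copy is known as disrupted, which the labels do not state. The same translocation removes the distal end of 1 chromosome 12, so that the mice differ from wild type in more than the copies of Olig1 and Olig2, and every cell of the animal carries the change from conception. Wild-type mice carry none of these alterations. Levels are the log2 signal of the brightest probe of a gene minus the 75th percentile of its array, and differences are Ts1Cje minus wild type.

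Oligodendrocytes make the myelin sheaths of the central nervous system. They arise from precursor cells that carry the receptor Pdgfra and the proteoglycan Cspg4, pass through a short differentiating stage marked by Gpr17, Bcas1 and Enpp6, and then switch on the genes of myelin. Olig2 and Olig1 are basic helix-loop-helix transcription factors that specify the lineage and act in it from precursor to mature cell, Sox10 works with them to switch on myelin genes, and Nkx2-2 takes part in the onset of differentiation. In bulk tissue, fewer cells of a type and less RNA per cell cannot be told apart.

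On single arrays 59.9% to 63.1% of the probes exceeded background clearly, and of the 34 genes 33 were above background on all 8 arrays and were tested, so that the filter on dim probes selected none of these through one genotype. The exception was Erbb3, a neuregulin co-receptor, whose probe was not well above background on any array and which has no value here. Of the 24025 features tested, 47 passed (limma, Benjamini-Hochberg adjusted p under 0.05). All 10 listed markers of hippocampal neurons were above background and tested, which cannot check the tissue label, since markers of other regions passed the same filter. Listed markers of neighbouring striatum and thalamus (12 of 12) and choroid plexus (7 of 8) were also above background in at least 1 genotype, with medians of -0.03 and -0.15 between the genotypes, and the part of dissection in the values below was not tested.

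Ts1Cje replicate 1 stood apart from the other arrays in this lineage. It was the lowest of the 8 arrays for 18 of the 33 tested members, among them all 3 differentiating genes and 15 of the 23 myelin genes, whereas it was the lowest for 12.9% of all features. It was also the highest for 5 members, Nkx6-2, Mobp, Cldn11, Mal and Hapln2, or 15.2%, against 14.4% of all features. The median deviation of the myelin genes from their own mean over the 8 arrays was -0.25 on this array, against 0.08, 0.05 and -0.03 on Ts1Cje replicates 2, 3 and 4 and 0.11, 0.05, -0.02 and 0.04 on wild-type replicates 1 to 4. The same array had the highest signal for 5 of 10 endothelial markers and the lowest for 1, and their median deviation there was 0.17. It was the highest for 3 and the lowest for 3 of 10 microglia markers. Of 10 astrocyte markers it was the highest for 2 and the lowest for 4. The other triplicated genes stood at a median deviation of 0.28 on it, against 0.24, 0.21 and 0.25 on the other Ts1Cje arrays and -0.27 to -0.22 on the wild-type arrays. The part of this array, or of its endothelial signal, in the genotype differences was not tested, and the value without it is given for each member whose difference it moved by over 1.5 times.

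**Figure D1:**
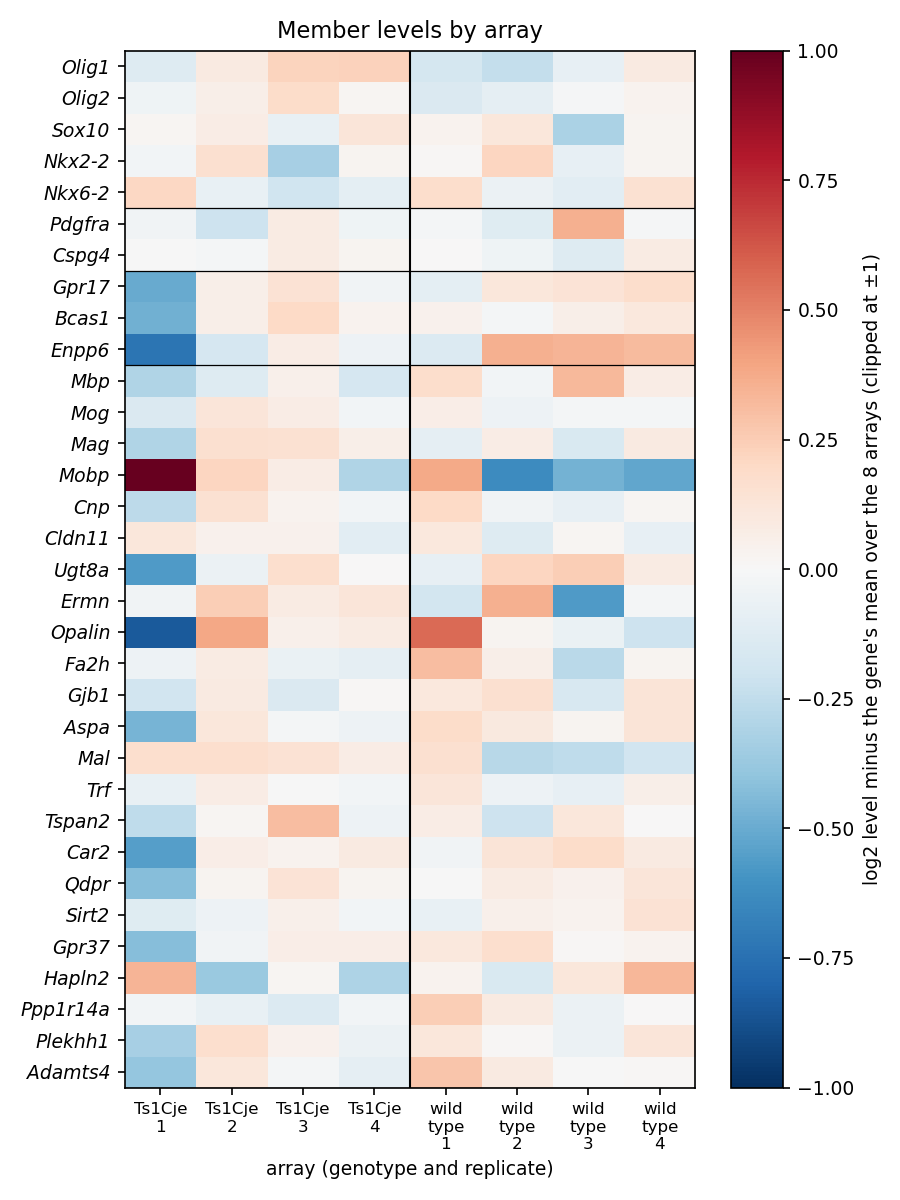
Deviation of each tested member (rows, in the order transcription factors, precursor, differentiating and myelin genes, separated by lines) from its own mean over the 8 arrays (columns, Ts1Cje replicates 1 to 4 left of wild-type replicates 1 to 4), in log2 units, blue below and red above the mean. Most rows from Gpr17 down are bluest in the first column, where Mobp and Hapln2 are red.

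The first question was whether the extra copy of Olig1 and Olig2 is seen in their mRNA, and in both genes the difference was small. Each gene was read by only 1 probe, so no other probe could be set beside it. Olig1 stood at 3.31, 3.53, 3.67 and 3.68 on the Ts1Cje arrays, against 3.26, 3.20, 3.36 and 3.53 on the wild-type arrays. The groups overlapped, because Ts1Cje replicate 1 lay below wild-type replicates 3 and 4 and Ts1Cje replicate 2 about level with wild-type replicate 4. The means were 3.55 ± 0.17 in Ts1Cje and 3.34 ± 0.14 in wild type (SD, n = 4 each), a 1.15-fold difference that did not pass (log2 0.21, SE 0.10; limma adjusted p = 0.608). Olig2 stood at -0.13, -0.02, 0.11 and -0.06 on the Ts1Cje arrays, against -0.23, -0.17, -0.09 and -0.05 on the wild-type arrays. Here too the groups overlapped, and the means of -0.02 ± 0.10 in Ts1Cje and -0.13 ± 0.08 in wild type (SD, n = 4 each) differed 1.08-fold (log2 0.11, SE 0.07; limma adjusted p = 0.661). The 95% intervals of the log2 difference, -0.03 to 0.44 for Olig1 and -0.04 to 0.26 for Olig2, held 0 and lay below 0.58, the log2 of 3 copies over 2. Without Ts1Cje replicate 1 Olig1 differed by 0.28 (interval 0.07 to 0.50, unadjusted p = 0.0150, limma adjusted p = 0.355) and Olig2 by 0.14 (adjusted p = 0.467). The interval of Olig1 lay above 0 in 5 of 18 alternatives and that of Olig2 in 0, while both stayed below 0.58 in all 18. Those 5 included the fits with the replicate number as a block (0.04 to 0.38) and with the slide row as a block (0.05 to 0.36). The others used array weights, or left out Ts1Cje replicate 1 or wild-type replicate 4. Olig1 passed over all features in none of them.

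**Figure D2:**
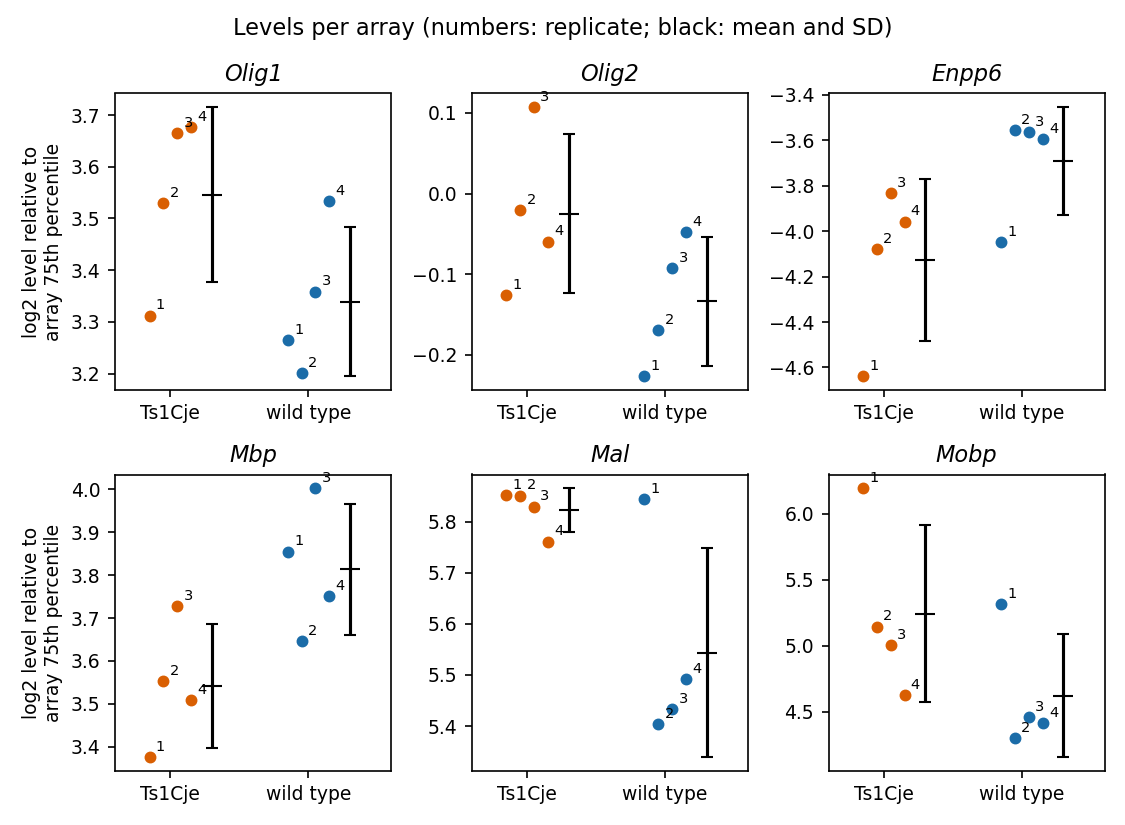
Log2 level (75th percentile of each array set to 0) for 6 members, one panel each, with Ts1Cje arrays left in orange and wild-type arrays right in blue; digits give the replicate and black bars the mean and SD of 4 arrays. In every panel the groups overlap, and the y axes differ between panels and do not start at 0.

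Neighbouring genes of the segment differed more. The 3 nearest tested genes on the proximal side, Cfap298, Synj1 and Paxbp1, were 1.46-fold, 1.38-fold and 1.58-fold higher in Ts1Cje, and the 3 on the distal side, the cytokine receptor genes Ifnar2, Il10rb and Ifnar1, 1.66-fold, 1.52-fold and 1.54-fold higher. Of these 6, Cfap298 (adjusted p = 0.0077), Ifnar2 (0.0078) and Ifnar1 (0.011) passed over all features, and in each of the 6 the lowest Ts1Cje array exceeded the highest wild-type array. Sod1 itself, at the start of the segment, was 1.71-fold higher in Ts1Cje (log2 0.77, SE 0.05; limma adjusted p = 0.0032), so its probe shows no loss of signal; where that probe lies relative to the disruption is not known here, and Sod1 was left out of the summary. Over the 61 other tested genes the median was 1.40-fold and 25 passed, all higher, against 0.175% of all features. Fewer of the 61 passed when any 1 array was left out. Without Ts1Cje replicates 1, 2, 3 and 4 the counts were 17, 9, 13 and 0. Without wild-type replicates 1, 2, 3 and 4 they were 18, 14, 23 and 12. Each such fit also has fewer arrays, and the part of any single array was not tested. None of the 6 neighbours passed without Ts1Cje replicate 4 and 2 did without Ts1Cje replicate 2, whereas the median of the 61 stayed between 1.36-fold and 1.42-fold in all 18 alternatives. On all 8 arrays with the replicate number as a block, 0 of the 61 and 0 of the 6 neighbours passed. Olig2 ranked the 5th lowest and Olig1 the 8th lowest of the 64 tested genes of the segment. Of the other 61, 14 also had a 95% interval below 1.5-fold. The difference between the Olig genes and their neighbours was not tested.

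**Figure D3:**
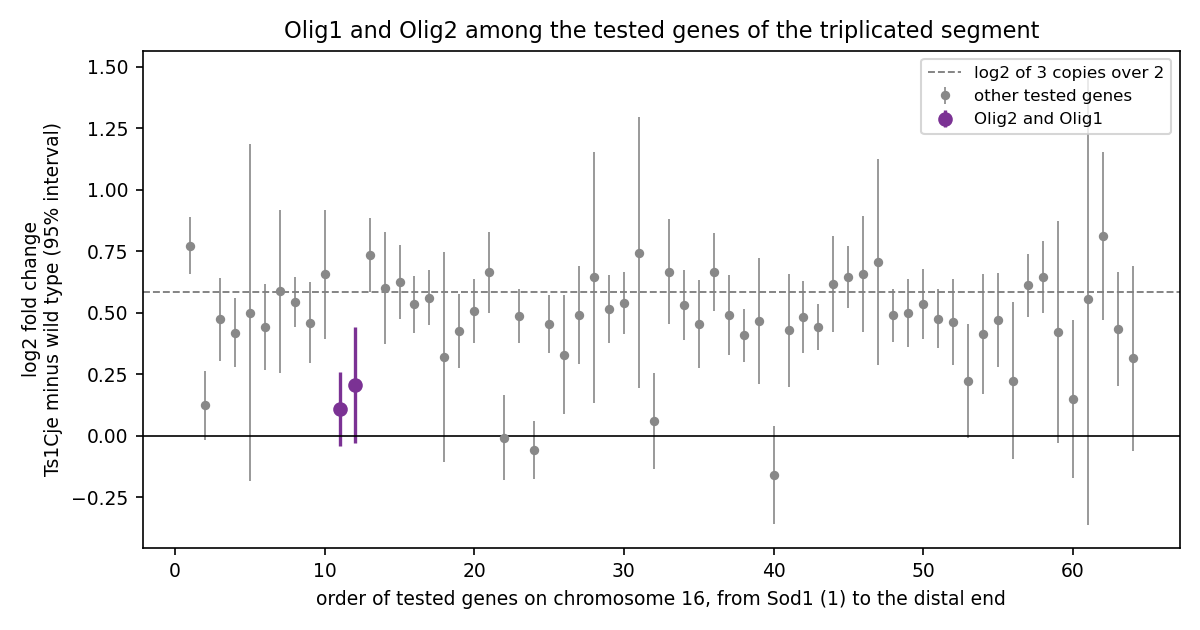
Log2 fold change (Ts1Cje minus wild type, bars 95% interval) of the 64 tested genes of the triplicated segment in their order on chromosome 16 from Sod1; purple, Olig2 and Olig1; dashed line, log2 of 3 copies over 2. Both purple bars reach below 0 and stay under the dashed line, between higher neighbours.

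Olig factors bind E-boxes, DNA elements of the form CANNTG, and the RefSeq promoter windows (GRCm38.p6, 250 bases before to 50 after the start of a gene) held entries for 24 of the 34 members. An E-box was found in 21 of 30 member windows, or 70.0%, and in 72.3% of all 32851 windows. These are shares of windows and not of genes, since Gjb1, Mag and Tspan2 gave several windows each. Most windows hold so short a motif, so the shares cannot tell which genes Olig factors bind. Its sequence class is the same on both strands, so a search of the plus strand covers both. The windows below are of the triplicated gene with an entry, of a precursor gene, of the differentiating gene with the widest difference and of the myelin gene with the lowest value on Ts1Cje replicate 1 relative to its mean; capitals mark E-boxes. That of Olig2 and that of Enpp6 held none, that of Pdgfra 2 and that of Opalin 3. A match is a description of the letters in this window and not a binding site.
Olig2, chr16:91225300-91225599, plus strand: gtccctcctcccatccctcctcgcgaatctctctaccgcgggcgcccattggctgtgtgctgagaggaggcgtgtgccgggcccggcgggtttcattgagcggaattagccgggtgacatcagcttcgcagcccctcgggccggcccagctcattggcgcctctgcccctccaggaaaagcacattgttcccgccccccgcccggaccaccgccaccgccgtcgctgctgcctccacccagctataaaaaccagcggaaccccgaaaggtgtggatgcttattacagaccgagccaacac
Pdgfra, chr5:75152001-75152300, plus strand: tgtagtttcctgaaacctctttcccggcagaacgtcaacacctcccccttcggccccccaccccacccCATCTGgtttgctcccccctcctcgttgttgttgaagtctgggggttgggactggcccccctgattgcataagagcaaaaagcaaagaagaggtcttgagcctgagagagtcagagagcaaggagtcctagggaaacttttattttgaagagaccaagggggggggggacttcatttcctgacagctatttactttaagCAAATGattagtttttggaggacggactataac
Enpp6, chr8:46986637-46986936, plus strand: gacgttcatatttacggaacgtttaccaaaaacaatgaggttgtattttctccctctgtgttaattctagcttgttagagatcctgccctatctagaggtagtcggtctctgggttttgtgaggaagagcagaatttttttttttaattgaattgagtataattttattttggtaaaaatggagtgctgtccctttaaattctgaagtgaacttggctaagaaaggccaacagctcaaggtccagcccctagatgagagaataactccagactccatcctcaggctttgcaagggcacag
Opalin, chr19:41077064-41077363, minus strand: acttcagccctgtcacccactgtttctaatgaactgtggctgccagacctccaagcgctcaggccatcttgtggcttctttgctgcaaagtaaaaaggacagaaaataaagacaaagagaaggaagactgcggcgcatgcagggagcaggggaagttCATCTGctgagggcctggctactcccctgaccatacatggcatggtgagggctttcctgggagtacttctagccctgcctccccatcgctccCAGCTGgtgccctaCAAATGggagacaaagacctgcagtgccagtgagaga

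The second question was whether the 2-copy genes of the lineage differed, stage by stage. None of the 33 tested members passed over all features (limma), against 0.196% of all 24025 features, 0.175% higher and 0.0208% lower, and the lowest adjusted p was 0.486. An unadjusted p under 0.05 was reached by 3 members, against 8.73% of all features. These were Mal, higher in Ts1Cje, against 4.15% of all features, and Mbp and Enpp6, lower in Ts1Cje, against 4.57%. In no member did the 4 arrays of one genotype all lie outside the range of the other, as they did in 6.12% of all features (2.42% higher and 3.7% lower). The median log2 difference of the 31 tested 2-copy members was -0.09, with 9 above 0 and 22 below, beside a median of -0.01 over all features, of which 52.7% were below 0. Without Ts1Cje replicate 1 the same 31 genes split 15 above and 16 below, with a median of -0.03. The 95% intervals of 29 of the 31 lay below 1.5-fold, and those of 26 lay within 1.5-fold in both directions. Of all 24025 features, 21684 had an interval below 1.5-fold and 20777 within 1.5-fold in both directions.

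**Figure D4:**
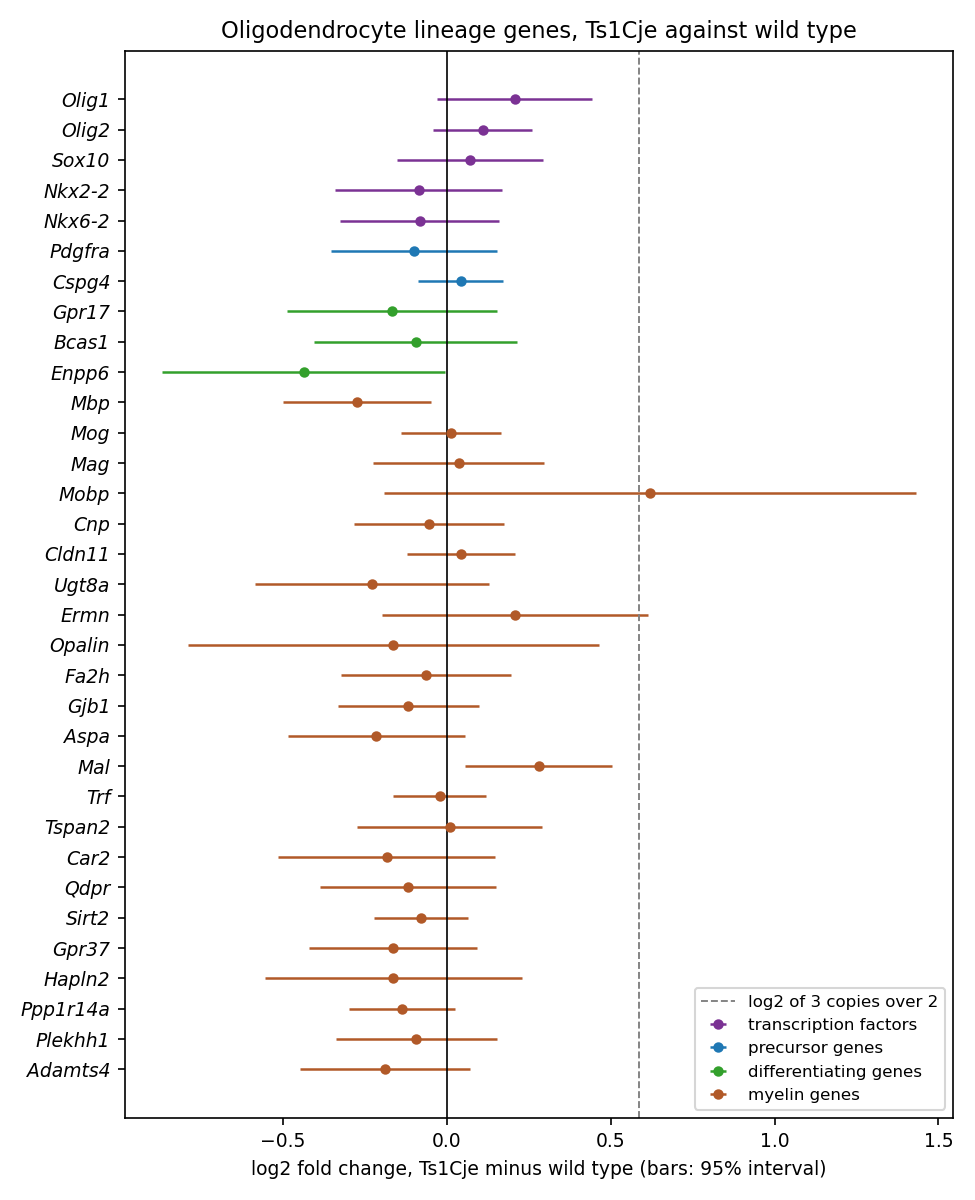
Log2 fold change (Ts1Cje minus wild type) of the 33 tested members with moderated 95% intervals from 4 arrays a group, coloured by stage; solid line, no change; dashed line, log2 of 3 copies over 2. Intervals of Enpp6, Mbp and Mal exclude 0, and those of Mobp and Ermn reach past the dashed line.

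Among the transcription factors with 2 copies, Sox10, which cooperates with Olig2, stood at 2.00, 2.05, 1.90 and 2.09 in Ts1Cje and at 2.01, 2.09, 1.66 and 2.00 in wild type. The difference was 0.07 (SE 0.10, limma adjusted p = 0.845), with wild-type replicate 3 the lowest array. Nkx2-2, a homeobox gene of the onset of differentiation, stood at -0.09 (SE 0.11) and Nkx6-2, a homeobox gene of maturing oligodendrocytes, at -0.08 (SE 0.11), or -0.17 without Ts1Cje replicate 1. The signs are not settled, since leaving out wild-type replicate 3 gave -0.02 for Sox10 and leaving out Ts1Cje replicate 3 gave 0.01 for Nkx2-2. The intervals of all 3 lay within 1.5-fold in both directions, as did those of 20777 of all 24025 features.

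The precursor genes also lay close to 0. Pdgfra, the receptor for platelet-derived growth factor that drives division of precursors, stood at 0.88, 0.71, 1.00 and 0.87 in Ts1Cje and at 0.89, 0.79, 1.27 and 0.90 in wild type (difference -0.10, SE 0.11, limma adjusted p = 0.799). Wild-type replicate 3 alone was above the others. Cspg4, the NG2 proteoglycan of precursors and also of pericytes, stood at 0.43, 0.42, 0.52 and 0.47 in Ts1Cje and at 0.44, 0.40, 0.31 and 0.52 in wild type. Its difference of 0.04 had an SE of 0.06, the smallest of the 33 members, and its interval ran from -0.09 to 0.17.

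The differentiating genes had log2 differences below 0 in all 3 cases, with Ts1Cje replicate 1 the lowest array each time. Enpp6, a choline phosphodiesterase of newly formed oligodendrocytes, stood at -4.64, -4.08, -3.83 and -3.96 in Ts1Cje and at -4.05, -3.56, -3.57 and -3.60 in wild type. The lowest wild-type array, replicate 1, lay below Ts1Cje replicates 3 and 4, so the groups overlapped. The difference was -0.44 (SE 0.19, unadjusted p = 0.0483, limma adjusted p = 0.569), or -0.27 without Ts1Cje replicate 1. A second probe of Enpp6 gave -0.77 (SE 0.17, unadjusted p = 0.0018, adjusted over all 32596 kept probes 0.226), again with overlapping arrays. Both probes were dim, though above background on all 8 arrays, and with normexp background correction the difference was -0.17.

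Gpr17, a G protein-coupled receptor that marks committed precursors, stood at 3.06, 3.62, 3.71 and 3.53 in Ts1Cje and at 3.47, 3.68, 3.70 and 3.74 in wild type. Its difference was -0.17 (SE 0.14, limma adjusted p = 0.735), and -0.03 without Ts1Cje replicate 1. Bcas1, which marks oligodendrocytes that have begun to form myelin, stood at 3.55, 4.09, 4.23 and 4.06 in Ts1Cje and at 4.07, 4.01, 4.08 and 4.13 in wild type. Its difference was -0.10 (SE 0.13, limma adjusted p = 0.848), and 0.05 without that array. For both genes a single Ts1Cje array was low and the other 3 lay within or near the wild-type range.

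Of the 23 tested myelin genes, 7 stood above 0 and 16 below, with a median of -0.09. Without Ts1Cje replicate 1 the split was 12 above and 11 below with a median of 0.0014. Among the genes of compact myelin and its membranes, Mbp, the main cytoplasmic protein of compact myelin, stood at 3.38, 3.55, 3.73 and 3.51 in Ts1Cje and at 3.85, 3.65, 4.00 and 3.75 in wild type. All Ts1Cje arrays but replicate 3 lay below all wild-type arrays. The difference was -0.27 (SE 0.10, unadjusted p = 0.0234, limma adjusted p = 0.496), and -0.22 without Ts1Cje replicate 1. Its other probes gave -0.05 (SE 0.08) and -0.17 (SE 0.12).

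Mal, a proteolipid of myelin membranes, had the opposite sign. It stood at 5.85, 5.85, 5.83 and 5.76 in Ts1Cje and at 5.84, 5.40, 5.43 and 5.49 in wild type. Wild-type replicate 1 lay among the Ts1Cje arrays, and the other 3 wild-type arrays below them. The difference was 0.28 (SE 0.10, unadjusted p = 0.0203, limma adjusted p = 0.486), and without wild-type replicate 1 it was 0.38 (adjusted p = 0.068).

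Mobp, a basic protein of myelin, had the widest difference and the widest error. Its brightest probe stood at 6.19, 5.14, 5.00 and 4.63 in Ts1Cje and at 5.32, 4.30, 4.46 and 4.41 in wild type. Replicate 1 of each genotype was the highest of its group. The difference was 0.62 (SE 0.35, limma adjusted p = 0.647), and 0.30 without Ts1Cje replicate 1. A second probe, designed on another RefSeq transcript, gave 0.48 (SE 0.14, unadjusted p = 0.00998, adjusted over the kept probes 0.415) with groups that did not overlap, and the third, named for the same transcript as the second, -0.03 (SE 0.12).

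The remaining myelin structure genes differed little. Mog, on the outer face of the sheath, stood at 0.01 (SE 0.07), Mag, the adhesion molecule facing the axon, at 0.04 (SE 0.11), Cnp, of the cytoplasmic channels of myelin, at -0.05 (SE 0.10), and Cldn11, of its tight junctions, at 0.04 (SE 0.07). Without Ts1Cje replicate 1 Mog stood at 0.06, Mag at 0.14, Cnp at 0.03 and Cldn11 at 0.01. Opalin, a membrane glycoprotein, had one of the widest ranges, with -0.72, 0.50, 0.17 and 0.20 in Ts1Cje and 0.69, 0.15, 0.05 and -0.09 in wild type. Its lowest array was Ts1Cje replicate 1 and its highest wild-type replicate 1, and the difference of -0.16 (SE 0.27) was 0.09 without Ts1Cje replicate 1. Gjb1, a gap junction connexin, stood at -0.12 (SE 0.09), Tspan2 at 0.01 (SE 0.12) and Hapln2, a link protein of the matrix at nodes of Ranvier, at -0.16 (SE 0.17). Without the same array these stood at -0.07, 0.09 and -0.30. Ermn, a cytoskeletal protein of late oligodendrocytes, stood at 0.21 (SE 0.18) on its brightest probe and -0.26 (SE 0.08, unadjusted p = 0.0108) on its other.

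The next 3 genes act on myelin lipids, and all 3 intervals held 0. Ugt8a, which makes galactosylceramide, stood at -0.23 (SE 0.16), Aspa, which frees acetate from N-acetylaspartate, at -0.21 (SE 0.12), and Fa2h, which hydroxylates the fatty acids of myelin lipids, at -0.06 (SE 0.11). Without Ts1Cje replicate 1 these were -0.08, -0.10 and -0.06, and without wild-type replicate 1 Fa2h stood at 0.03. For Ugt8a the Ts1Cje arrays stood at -0.28, 0.23, 0.45 and 0.29 and the wild-type arrays at 0.20, 0.50, 0.53 and 0.37. Ts1Cje replicate 1 was the lowest of the 8 arrays.

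Enzymes and transport genes that oligodendrocytes share with other cells were also lowest on Ts1Cje replicate 1 in the cases of Car2, Qdpr and Sirt2. Car2, carbonic anhydrase, stood at 3.40, 4.02, 3.99 and 4.04 in Ts1Cje and at 3.92, 4.09, 4.14 and 4.05 in wild type, a difference of -0.18 (SE 0.14) that was -0.03 without Ts1Cje replicate 1. Qdpr, which recycles tetrahydrobiopterin, stood at -0.12 (SE 0.12), and at 0.0037 without that array. Trf, the iron carrier transferrin, stood at -0.02 (SE 0.06) and the deacetylase Sirt2 at -0.08 (SE 0.06), or 0.0014 and -0.05 without it. Of the signalling and matrix genes, the receptor gene Gpr37 stood at -0.16 (SE 0.11), the phosphatase inhibitor gene Ppp1r14a at -0.14 (SE 0.07), Plekhh1 at -0.09 (SE 0.11) and the protease gene Adamts4 at -0.19 (SE 0.11). Without Ts1Cje replicate 1 Gpr37 stood at -0.05, Plekhh1 at 0.0036 and Adamts4 at -0.09, while Ppp1r14a stood at -0.15. All 8 of these genes had, on all arrays, a limma adjusted p of 0.624 or more.

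Of the 8 members with more than 1 kept probe, 2 had probes that differed in sign, Ermn and Mobp. Over the 10 pairs of the brightest with another probe of the same gene, the widest change in their within-array difference between genotypes was 0.65 for Mobp (two-sided exact permutation p = 0.0857, adjusted over the 10 pairs 0.5), and for Ermn it was 0.47 (exact permutation p = 0.114, adjusted 0.5). The smallest p that 4 against 4 arrays can give is 0.0286. The probes of Trf and Tspan2 lay within 0.02 of each other in their log2 differences.

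**Figure D5:**
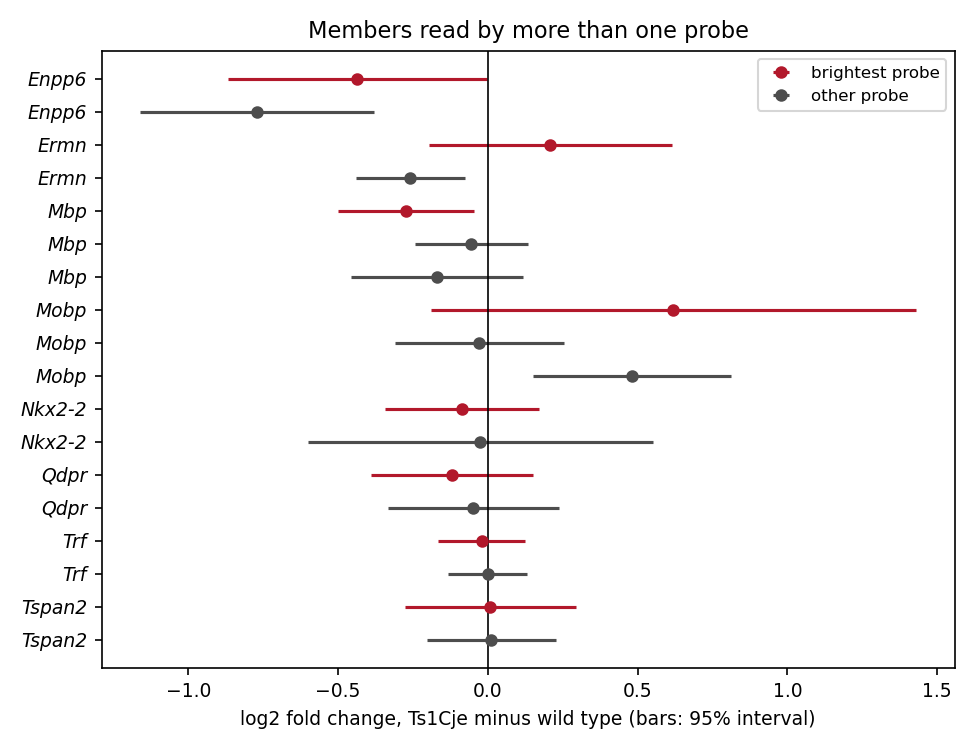
Log2 fold change (Ts1Cje minus wild type, bars 95% interval) of each kept probe of the 8 members read by more than 1 probe; red, brightest probe of the gene, used in the other plots; grey, its other probes. Ermn and Mobp have probes on both sides of 0, and all probes of Trf and Tspan2 are close to 0.

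Other genes of the lineage, in 3 lists made by role, held 53 tested genes, and none passed over all features. Of the 53, 8 reached an unadjusted p under 0.05 lower in Ts1Cje and 0 higher, against 4.57% and 4.15% of all features. The groups did not overlap for 3 of the 53, all lower, against 3.7% of all features: Zeb2, Klk6 and, named after its values were seen, Ndrg1 (-0.24, SE 0.09, limma adjusted p = 0.486), a gene whose loss causes a demyelinating neuropathy of peripheral nerve. Of 14 tested precursor genes 5 stood above 0 and 9 below, with a median of -0.03, and the smallest p were those of Ptprz1, a receptor phosphatase (-0.24, SE 0.08, limma adjusted p = 0.439), and Rlbp1, a retinoid-binding protein (-0.31, SE 0.11, 0.504). Of 16 tested regulators of the lineage 6 stood above 0 and 10 below, with a median of -0.07, led by Zeb2, a repressor of inhibitory signals in differentiating oligodendrocytes (-0.15, SE 0.05, limma adjusted p = 0.494), and Sox8, a relative of Sox10 (-0.16, SE 0.06, 0.531). Of 23 other tested myelin genes 5 stood above 0 and 18 below, with a median of -0.13, led by Gsn, an actin-severing protein (-0.22, SE 0.07, limma adjusted p = 0.476), and Klk6, a secreted protease (-0.78, SE 0.27, 0.486). Ts1Cje replicate 1 was the lowest array for 17 of these 23, and without it 9 stood above 0 and 14 below, with a median of -0.02. Without it 4 of the 23, 2 of the 14 precursor genes and 1 of the 16 regulators were lower at an unadjusted p under 0.05. In each list 0 were higher, beside 1324 of all 24025 features lower and 1425 higher. The other precursor genes had that array lowest in 3 of 14.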

How the data were processed

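Per the labels' protocols, Cy3-labelled cRNA was made from 0.1 µg of total RNA. Spots were quantified by Agilent Feature Extraction 10.10.1.1 on a design built on mm9, per the file headers. The deposited values are linear intensities of spots, background-corrected by that software and not normalized between arrays, with flags. All 8 arrays shared 1 slide and 1 scan; each row of the slide held replicates 1 and 2 or 3 and 4 of both genotypes, with Ts1Cje in slide columns 2 and 4 and wild type in 1 and 3, so that these columns cannot be told apart from genotype.

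Spots that were controls or carried an outlier flag were dropped; none was saturated. Processed signals were put on the log2 scale, averaged where a probe had several spots, and centred on the 75th percentile of their array. A probe stayed in if all 4 arrays of either genotype had it well above background (32596 probes). Probes were named by RefSeq accession from a table of GRCm38.p6, and the brightest kept probe stood for a gene (24025 features). The promoter windows are RefSeq's. Levels of different probes are not comparable. The genotypes were compared by lmFit and eBayes (limma 3.58.1, R 4.3.3) without a block; p-values rest on the spread among labelled replicates only. On simulated data with 200 changed among 24025 features, this fit recovered 68% of the 1.5-fold and 92% of the 2-fold changes with 10 false calls. The changed features were drawn from all features, whose median SE was 0.08, against 0.11 for the members. These shares are therefore not the recovery to be had among the members. Every member is named, with the 3 nearest tested genes on each side of Olig1 and Olig2 and, of each other list, the 2 smallest p, of which 1 gene is not reported here. The members and lists were chosen with earlier results of these data known. The number of arrays limits the precision. Alternatives were other background corrections, scalings, probe filters, probe rules, variance models, blocks, and each array left out; the slide row as a block was added after seeing the data.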

Additional observations from a re-analysis of the deposited data

Results flagged for a closer look

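Among the 66 sets of 4 arrays that the 33 tested members give, 3 had 1 array far from its group by Dixon's ratio, the gap to the nearest array over the range of the group; chance flags about 1 in 20 such sets, or 3.3 here. Car2 stood at 3.40 on Ts1Cje replicate 1, against 3.99 to 4.04 on the other Ts1Cje arrays (ratio 0.918). Mobp stood at 5.32 on wild-type replicate 1, against 4.30 to 4.46 on the other wild-type arrays (ratio 0.844). Enpp6 stood at -4.05 on wild-type replicate 1, against -3.60 to -3.56 on the others (ratio 0.917).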

How the results depend on the processing

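No member passed the threshold in any of the 18 alternatives, in 10 of which all 8 arrays were used; the lowest adjusted p of any member was 0.0506, for Enpp6 without wild-type replicate 3 (-0.93), where the other probe of the gene became the brightest. Over the alternatives Olig1 ranged from 0.16 to 0.28, Olig2 from 0.06 to 0.14, Enpp6 from -0.93 to -0.17, Mbp from -0.33 to -0.17, Mal from 0.23 to 0.38 and Mobp from 0.30 to 0.85. The median of the 2-copy transcription factors ranged from -0.13 to 0.01, above 0 without Ts1Cje replicate 3, that of the differentiating genes from -0.24 to -0.03, and that of the myelin genes from -0.14 to 0.0014, above 0 without Ts1Cje replicate 1. The count of 47 features past the threshold was 25 with the array median as centre, 23 with no filter on dim probes, 84 with array weights and 71 with a trended and robust variance prior. Leaving out 1 array gave 4 to 44 calls: Ts1Cje replicate 4 left out gave 4, Ts1Cje replicate 2 gave 17, wild-type replicates 2 and 4 gave 24 each, Ts1Cje replicate 3 gave 25, and the other 3 arrays 36 to 44. With the replicate number as a block the count was 1, with 0 of the 61 other triplicated genes and 0 of the 6 neighbours of the Olig genes past the threshold. Under that block 3 of 33 members were higher and 3 lower in Ts1Cje at an unadjusted p under 0.05. Of all 24025 features, 1342 were higher and 1343 lower at that cutoff. Deviations of equally numbered arrays from their group means correlated at 0.24, 0.19, 0.11 and 0.05 across features for replicates 1 to 4. Ts1Cje replicates 1, 2 and 4 correlated best with the wild-type array of their own number, and Ts1Cje replicate 3 with wild-type replicate 4. The series is described as littermate pairs, but no label says that a number marks a pair, so the numbers were not taken as pairs. With the slide row as a block the count was 45, and within the rows Olig1 differed by 0.19 and 0.23 and Olig2 by 0.12 and 0.09.

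Signs changed for 16 of the 33 members, none of them called in any alternative; the cause was not tested. With the array median as centre, which moved the median of all features to -0.06, Cspg4 stood at -0.0083, Mog at -0.038, Mag at -0.014, Cldn11 at -0.0070 and Tspan2 at -0.042. Ermn stood at -0.026 with the mean over probes, Trf at 0.0041 with quantile normalization and Tspan2 at -0.0039 with normexp. With 1 array left out the ranges were: Sox10 -0.024 to 0.12, Nkx2-2 -0.15 to 0.011, Pdgfra -0.16 to 0.00082, Bcas1 -0.18 to 0.049, Mog -0.026 to 0.061, Mag -0.010 to 0.14, Cnp -0.11 to 0.026, Opalin -0.32 to 0.090, Fa2h -0.16 to 0.028, Trf -0.053 to 0.016, Tspan2 -0.092 to 0.094, Qdpr -0.19 to 0.0037 and Plekhh1 -0.16 to 0.0036.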

Other observations

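No marker of the other cell types passed over all features. Of 10 hippocampal neuron markers 3 stood above 0 and 7 below (median -0.09), and the smallest p were those of C1ql2, a granule cell gene (-0.25, SE 0.05, limma adjusted p = 0.148), and Wfs1, a gene of CA1 pyramidal cells (0.30, SE 0.07, limma adjusted p = 0.222). The groups did not overlap for 3 of the 10, against 6.12% of all features: Wfs1 higher, C1ql2 lower and, named after its values were seen, Fibcd1 lower (-0.19, SE 0.05, limma adjusted p = 0.321). Of 10 astrocyte markers 2 stood above 0 and 8 below (median -0.06), with the connexin gene Gja1 at -0.31 (SE 0.11) and S100b at 0.15 (SE 0.06). Of 10 microglia markers 5 stood above 0 and 5 below (median -0.0028), with Tmem119 at -0.23 (SE 0.09). Of 10 endothelial markers 6 stood above 0 and 4 below (median 0.05), with the receptor gene Tek at 0.16 (SE 0.07) and Emcn at -0.17 (SE 0.07). Of 10 markers of mural cells and fibroblasts 5 stood above 0 and 5 below (median 0.01), with Pdgfrb at -0.23 (SE 0.07) and Dcn at 0.29 (SE 0.18). Of 7 tested choroid plexus markers 1 stood above 0 and 6 below (median -0.15), with Calml4 at -0.28 (SE 0.09) and Otx2 at -0.77 (SE 0.29). The groups did not overlap for 2 of the 7, against 6.12% of all features. These were Calml4, lower, and, named after its values were seen, Prlr, higher (0.13, SE 0.05). Of 12 markers of striatum and thalamus 5 stood above 0 and 7 below (median -0.03), with Prkcd at 0.17 (SE 0.06) and Calb2 at -0.18 (SE 0.11).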
